A study of Mus musculus with 4 samples.

Results

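Pramel4, Pramel5, Pramel6 and Pramel7 are mouse genes of the PRAME family, and they were examined in nascent RNA of embryonic stem (ES) cells. They were taken by symbol, 4 rows of the 54146 mouse genes in the deposited table, and they were chosen by their nascent RNA level in KO against WT, as already known from these libraries. Their own differences between KO and WT are therefore given as a description, with no test. The libraries came from ES cells labelled Supt3 KO (2 libraries) and ES cells labelled Supt3 WT (2 libraries), both grown with LIF and serum. Supt3 encodes a subunit of the SAGA coactivator. RNA was labelled with 4-thiouridine, so that newly made transcripts were purified (TT-seq), and labelled S. pombe (fission yeast) RNA was added to all libraries as a spike-in. The labels describe neither the mutant allele nor whether separate clones or cultures gave the libraries within KO or WT, so every p-value reflects the spread among these 4 libraries alone, which may be technical.

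PRAME family proteins are built of leucine-rich repeats, and several serve as substrate receptors of Cullin-2 ubiquitin ligases. In the mouse the family is greatly expanded and many members are transcribed mainly in germ cells and the early embryo. Pramel7 is known from the inner cell mass and from ES cells, where it acts downstream of LIF and STAT3 and directs UHRF1, the factor that recruits the maintenance DNA methyltransferase, to degradation. Pramel6 is a close relative of Pramel7 that is active in the same cells.

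Pramel7 and Pramel6 lie side by side on chromosome 2 and Pramel4 and Pramel5 in the large family cluster of chromosome 4 (mm10). Pramel7 (ENSMUSG00000025839) spans 87489087 to 87497093 on the minus strand, and Pramel6 (ENSMUSG00000025838) spans 87506565 to 87510872 on the plus strand, so the pair is transcribed away from each other with 9471 bases between them. Pramel4 (ENSMUSG00000073724) spans 144059126 to 144069327 on the plus strand and Pramel5 (ENSMUSG00000036749) 144270633 to 144280488 on the minus strand. None of the 4 overlaps another gene of the deposited table (0 overlapping genes each). The 250 bases before the RefSeq start of the pair with reads in every library are shown because the pair lies together and both genes were lower in KO; capitals mark CpG dinucleotides, the sites that DNA methylation can occupy. The Pramel7 stretch is chr2:87492419-87492668 on the minus strand and the Pramel6 stretch chr2:87506315-87506564 on the plus strand, both from RefSeq on GRCm38.p6.
Pramel7: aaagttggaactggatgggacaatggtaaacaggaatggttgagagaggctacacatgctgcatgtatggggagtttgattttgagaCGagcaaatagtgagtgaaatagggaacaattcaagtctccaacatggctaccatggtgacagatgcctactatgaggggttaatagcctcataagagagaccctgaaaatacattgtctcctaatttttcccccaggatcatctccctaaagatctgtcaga
Pramel6: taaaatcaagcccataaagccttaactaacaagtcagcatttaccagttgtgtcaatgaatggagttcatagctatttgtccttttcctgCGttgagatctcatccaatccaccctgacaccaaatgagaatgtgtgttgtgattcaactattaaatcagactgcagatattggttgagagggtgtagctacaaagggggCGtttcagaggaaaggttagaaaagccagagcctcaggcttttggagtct

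These stretches are poor in CpG, with 1 in that of Pramel7 and 2 in that of Pramel6. Over the whole RefSeq window of 300 bases (250 before the start and 50 after it) the number was 1 for Pramel7, 3 for Pramel6, 2 for Pramel4 and 0 for Pramel5, against a median of 7 over 32851 windows of that length. The STAT motif TTCNNNGAA, which reads the same on both strands, was in 0 of the 4 windows and in 8.30% of all windows. The Pramel7 and Pramel6 windows were 47.9% identical in a global alignment with a longest shared run of 6 bases, whereas those of Pramel4 and Pramel5 were 83.4% identical with a shared run of 111 bases. RefSeq places the Pramel7 start inside the gene as deposited, and the GENCODE M21 models hold 4 different transcript starts, so the window covers only one of them.

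The depth was 13.1 and 18.4 M mouse counts in KO and 13.5 and 19.4 M in WT (M, 1e6). Supt3 itself stood at 123 and 140 CPM in KO and at 147 and 158 CPM in WT (edgeR log2 fold change -0.22 ± 0.10 SE, adjusted p = 0.232), so its whole-gene count does not check the genotype. Levels are in CPM, the count of a gene per 1e6 mouse counts after TMM scaling of the library sizes. Of 10 ES cell markers 9 were tested, and their summed level was 2467 and 2609 CPM in KO and 3044 and 3030 CPM in WT. Nanog was called lower (-0.53 ± 0.13, adjusted p = 0.0362), 8 were not called, and 3 with Nanog were at an unadjusted p under 0.05. The gene not tested was Sox2, with a total count of 0, which lies within the gene Sox2ot. Among all 16789 tested genes 4.05% were called higher, 4.02% were called lower, and 3842 were at an unadjusted p under 0.05. Primitive endoderm markers summed to 1280 and 1743 CPM in KO and 666 and 786 CPM in WT, with 9 of 12 called higher and none at 0. Trophoblast markers summed to 101 and 119 CPM in KO and 77.2 and 69.1 CPM in WT, with 5 of 8 tested called higher. Of these 5, Cdx2 passed the filter on low counts through KO alone, with 20 and 16 counts in KO and 4 and 4 in WT. Of the 3 trophoblast markers not called, Tfap2c, the most abundant in WT, stood at 34.1 CPM in KO and 46.3 CPM in WT (-0.43 ± 0.15). The others were Eomes (0.15 ± 0.26) and Hand1, which was above 0 and whose WT libraries alone would not have passed that filter. Feeder fibroblast markers summed to 8.74 and 7.45 CPM in KO and 8.41 and 6.58 CPM in WT. Of these, 0 of 5 tested were called by edgeR (3 at an unadjusted p under 0.05). These bulk libraries cannot tell fewer cells of a type from less RNA per cell, and the part of other cell types in the results below was not tested.

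Pramel7 was the member with the clearest signal, and it was about 4 times lower in KO. It had 9 and 16 counts in the KO libraries, against 47 and 66 counts in the WT libraries. On the CPM scale this was 0.667 and 0.896 in KO and 3.44 and 3.45 in WT, a mean of 0.781 ± 0.162 CPM in KO and 3.44 ± 0.00436 CPM in WT (SD, n = 2 each). Both KO libraries lay below both WT libraries, with the lowest WT library 3.84 times the highest KO library. The near identity of the WT libraries is closer than counting error alone would give, since the 95% exact Poisson interval was 2.53 to 4.57 CPM for WT replicate 1 and 2.66 to 4.38 CPM for WT replicate 2, against 0.305 to 1.27 CPM for KO replicate 1 and 0.512 to 1.46 CPM for KO replicate 2. Summed over libraries, 25 counts in KO stood against 113 counts in WT, a ratio of 0.232 after scaling (95% exact interval 0.144 to 0.360, counting error only, which treats reads as independent molecules). The fit over all genes gave a log2 fold change of -2.11 ± 0.32 (SE), the 66th lowest of 16789 tested genes. Pramel7, the sole member that passed the filter on low counts, was 1 of 675 genes called lower at an adjusted p under 0.05 (4.02% of those tested, with 8.07% called in either direction), a count from which nothing is read because the gene was chosen with this contrast known. Groups without overlap in this direction were seen for 26.0% of tested genes.

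The spike-in gave the same order for Pramel7. Per 1e6 S. pombe counts it had 1.85 and 4.23 counts in KO and 11.3 and 19.0 counts in WT. The groups did not overlap on this scale either, as for 13.2% of tested genes, while libraries of 1 genotype lay further apart than with TMM, by 1.19 on the log2 scale in KO and by 0.75 in WT. The spike-in log2 fold change was -2.33, where the median of all tested genes was -0.23, and relative to that median Pramel7 stood at -2.10. The authors' deposited table, whose size factors go with the S. pombe totals and whose fold changes are shrunk, lists -1.32 for Pramel7, and the gene is not among its 8 genes with an adjusted p under 0.05.

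Pramel6 was transcribed at a lower level than Pramel7, per kb of exon as well, and its mean was lower in KO. It had 2 and 4 counts in KO and 4 and 11 counts in WT, or 0.148 and 0.224 CPM in KO and 0.293 and 0.574 CPM in WT. On this scale both KO libraries lay below both WT libraries, as for 26.0% of tested genes, but per 1e6 S. pombe counts the groups overlapped, with 0.412 and 1.06 in KO and 0.966 and 3.17 in WT. The difference is within counting error: 6 counts in KO against 15 counts in WT gave a ratio of 0.419 with a 95% exact interval of 0.133 to 1.14. Pramel6 did not pass the filter on low counts. Without that filter its fitted log2 fold change was -1.20, and this was -0.58 without WT replicate 2, the library that holds 11 of its 15 WT counts. The authors' deposited table lists a log2 fold change of -0.41 for Pramel6.

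Pramel5 and Pramel4 were at or near 0 in both genotypes. Pramel5 had 2 and 1 counts in KO and 0 and 1 counts in WT, a ratio of 3.14 with a 95% exact interval of 0.252 to 165. Pramel4 had 0 counts in all 4 libraries, which allows up to 0.0957 CPM in KO and 0.0914 CPM in WT (3 counts over the libraries of a genotype). Neither level shows a difference at this depth. Of the stretches of 50 bases in the GENCODE M21 transcripts of Pramel4, 87.4% also occur in transcripts of other genes, where a read cannot be placed with certainty; the part of this in its count of 0 was not tested. The share was 25.9% for Pramel5, 1.43% for Pramel7 and 0% for Pramel6. Of the Pramel5 stretches, 22.9% recur in Pramel4, and 0% of those of Pramel7 recur in Pramel6, so reads of the chromosome 2 pair can be told apart.

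**Figure D1:**
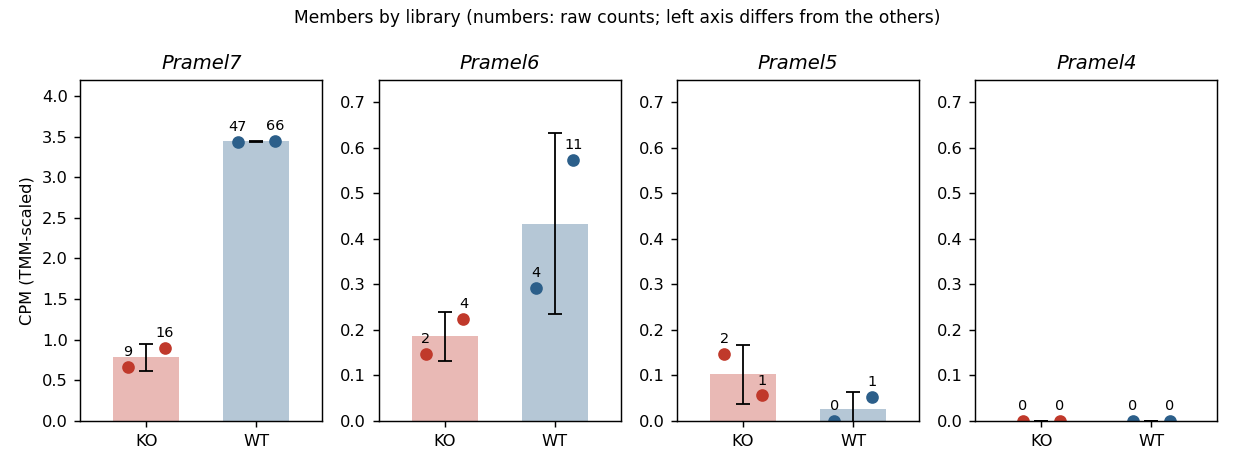
TMM-scaled CPM of the 4 genes in each library (points) with the mean (bar) and SD (line) of KO and WT, n = 2 libraries each; numbers over points are raw counts, and the Pramel7 axis has a wider range than the other 3. Pramel7 stands at 0.667 and 0.896 CPM in KO and at 3.44 and 3.45 CPM in WT, Pramel6 is lower in KO with few counts, and Pramel5 and Pramel4 are at or near 0.

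Set beside the rest of the family, Pramel7 ranked lower in KO than in WT, where it was among the most transcribed members. The deposited table held 35 other PRAME family genes, found by symbol or through RefSeq synonyms; 18 had no count in any library and 8 passed the filter on low counts. Per kb of exon, Pramel7 stood at 0.312 and 0.420 CPM in KO and at 1.61 and 1.61 CPM in WT, which is rank 9 of the family in KO and rank 4 in WT. In WT the order was led by Pramef8 (mean 10.7 CPM per kb), Pramef12 (4.56) and Gm12794 (1.79), with Pramel7 next and Pramel1 after it (0.757). Gm12794 ranged from 1.11 to 2.47 CPM per kb over the WT libraries and so did not differ from Pramel7 beyond its spread, while the Pramel1 values, 0.655 and 0.859, lay below both Pramel7 values. Per kb of gene span the ranks of Pramel7 were 10 in KO and 4 in WT. Whether exons or whole genes were counted is not stated.

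No other family gene was called lower, and 1 of the 8 tested was called higher. Pramef6, Gm13078, B020004J07Rik and Gm13119 passed the filter on low counts through their KO libraries, and their WT libraries alone would not have passed it. Their positive values are therefore partly fixed by the filter. The gene called higher was Pramef6 (RefSeq symbol Pramel11), with 27 and 22 counts in KO and 7 and 1 counts in WT (log2 fold change 2.64 ± 0.68, edgeR adjusted p = 0.0476). Both KO libraries were higher, but without WT replicate 2 the call was lost (1.62, adjusted p = 0.225), and with WT replicate 1 left out the value was 4.74. Genes called higher were 4.05% of those tested. Gm13078 (Pramel24) had 44 and 32 counts in KO and 14 and 3 counts in WT, a log2 fold change of 2.20 ± 0.63 that did not pass (adjusted p = 0.0696). It passed in DESeq2 (adjusted p = 0.0363) and in 3 of 4 fits that leave out a library, with the exception of that without WT replicate 2 (1.27, adjusted p = 0.222); without WT replicate 1 it was 3.92.

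The remaining tested family genes fell into genes with positive values and genes near 0. Gm12794 (Pramel19) had 116 and 86 counts in KO and 49 and 31 counts in WT (1.40 ± 0.40, adjusted p = 0.0682). It passed in DESeq2 (adjusted p = 0.0193) and in 3 of 4 fits without a library, at 2.02 without WT replicate 1, and did not pass without WT replicate 2 (0.89, adjusted p = 0.171). B020004J07Rik (Pramel17) had 22 and 22 counts in KO and 7 and 9 counts in WT (1.52 ± 0.41, adjusted p = 0.0577). Gm13119 (Pramel31) had 34 and 15 counts in KO and 7 and 16 counts in WT (1.21 ± 0.57, adjusted p = 0.247). Its value was 0.27 without KO replicate 1 and 1.85, with a call (adjusted p = 0.00478), without KO replicate 2. In all 3 of these genes both KO libraries lay above both WT libraries, as for 26.7% of tested genes, but in Gm13119 KO replicate 2 and WT replicate 2 were nearly level, at 0.84 CPM each. Pramef8 (Pramel12), the most abundant family gene, had 759 and 859 counts in KO and 651 and 805 counts in WT (0.22 ± 0.12), Pramef12 (Pramel13) 193 and 182 in KO and 168 and 214 in WT (0.06 ± 0.19), and Pramel1 35 and 32 in KO and 25 and 46 in WT (0.01 ± 0.32). With spike-in scaling these last 3 turned to -0.02, -0.22 and -0.29.

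Counted by direction regardless of the filter, with TMM scaling, 8 of the 10 other family genes with at least 10 counts had a ratio of KO over WT above 1 and 2 a ratio below 1. The same share over all genes was not taken. With spike-in scaling Pramef8 and Pramef12 were below 0 on the log2 scale (-0.02 and -0.22). Nothing about the family is therefore read from this count. Some of the tested genes passed the filter through their KO libraries alone, so the share of positive values among them is no measure of the family. The genes below 1 were Gm13128 (Pramel30), with 2 and 4 counts in KO and 6 and 11 counts in WT (ratio 0.369, 95% exact interval 0.119 to 0.982), and Pramel1 (0.988). Gm13083 (Pramel21), which failed the filter, had 15 and 8 counts in KO and 2 and 1 counts in WT (ratio 8.03, 2.42 to 41.8). Gm13128 and Gm13083 fall outside the naming rule and were chosen after their values were seen. In transcripts of Gm13128, Gm12794, Pramef6 and Gm13119 the share of stretches of 50 bases found in other genes was 73.8%, 47.3%, 33.7% and 38.6%. The split of reads between copies is therefore uncertain, also for the rank of Gm12794 above. Markers of the 2-cell-like state, a rare ES cell state in which genes of the early embryo are active, summed to 64.1 and 41.1 CPM in KO and 31.0 and 19.9 CPM in WT. Of these markers 3 of 9 tested were called higher (4.05% of all tested genes) and 6 were not called, with none of those found in the table at 0. Their sum was higher in replicate 1 than in replicate 2 in both genotypes, although Zfp352 and Tcstv3 had the opposite order in KO. The order of the sum was also that of Pramef6, Gm13078, Gm12794 and B020004J07Rik. Pramef8 and Pramef12, which were near 0 in log2 fold change, had this order too. Pramel1 and Gm13119 had the opposite order in WT. The part of the 2-cell-like markers in the family values was not tested.

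**Figure D2:**
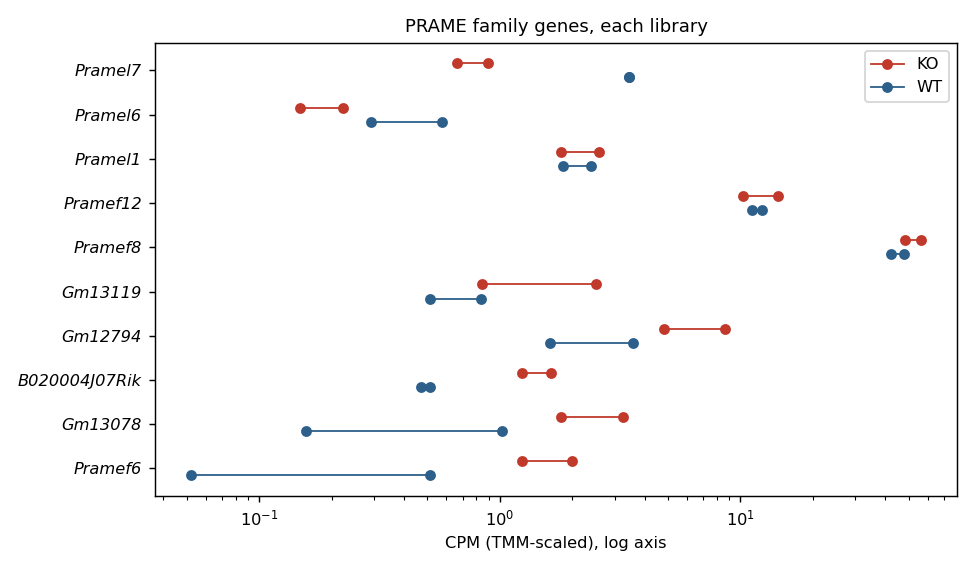
TMM-scaled CPM on a log axis for the 9 family genes that passed the filter on low counts and Pramel6; each point is a library and lines join the 2 libraries of KO (red, upper) and WT (blue, lower). Pramel7 and Pramel6 have their KO points left of the WT points, Pramel1 and Pramef12 overlap, and B020004J07Rik, Gm12794, Gm13078 and Pramef6 have theirs to the right.

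The surroundings of the members were mostly silent. Within 500 kb of the chromosome 2 pair the table holds 81 other genes, of which 63 are olfactory receptor genes and 65 had no count; 0 passed the filter, so no neighbour of Pramel7 was tested. The nearest neighbours with at least 10 counts were the processed pseudogene Gm13738, 6160 bases beyond Pramel6, and the olfactory receptor gene Olfr153, 20924 bases beyond it. Gm13738 had 1 and 0 counts in KO and 6 and 3 counts in WT (ratio 0.116, 95% exact interval 0.00265 to 0.839). Olfr153 had 2 and 5 counts in KO and 3 and 16 counts in WT (0.386, 0.137 to 0.958), and 16 of its 19 WT counts were in WT replicate 2. Summed over libraries, all 4 genes of this short stretch with at least 10 counts thus had fewer counts in KO, and they were singled out after their values were seen. In Olfr153, KO replicate 2 with 5 counts held more than WT replicate 1 with 3 counts.

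Around Pramel4 and Pramel5, 31 genes outside the PRAME family lie within 500 kb, of which 15 had no count and 2 were tested. The tested family genes of this window, described above, are Pramef6, which was called higher, and Gm13078, Gm13119 and Pramef12, which were not called. Among the genes outside the family, calls numbered 0 in edgeR (1 gene at an unadjusted p under 0.05), 0 in DESeq2 and 0 in limma voom. Over all tested genes edgeR called 8.07%, so 0 calls among 2 genes cannot be told from that share. Gm13124 (RefSeq symbol Aadacl4fm2) had 24 and 17 counts in KO and 7 and 10 counts in WT (1.35 ± 0.46, adjusted p = 0.122). The WT libraries of Gm13124 alone would not have passed the filter on low counts, so its positive value is partly fixed by the filter. Pramef12os, which is annotated as antisense within Pramef12, had 13 and 9 counts in KO and 13 and 22 counts in WT (-0.57 ± 0.44); the strand setting of the counting is not stated, so its reads cannot be told from those of Pramef12.

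**Figure D3:**
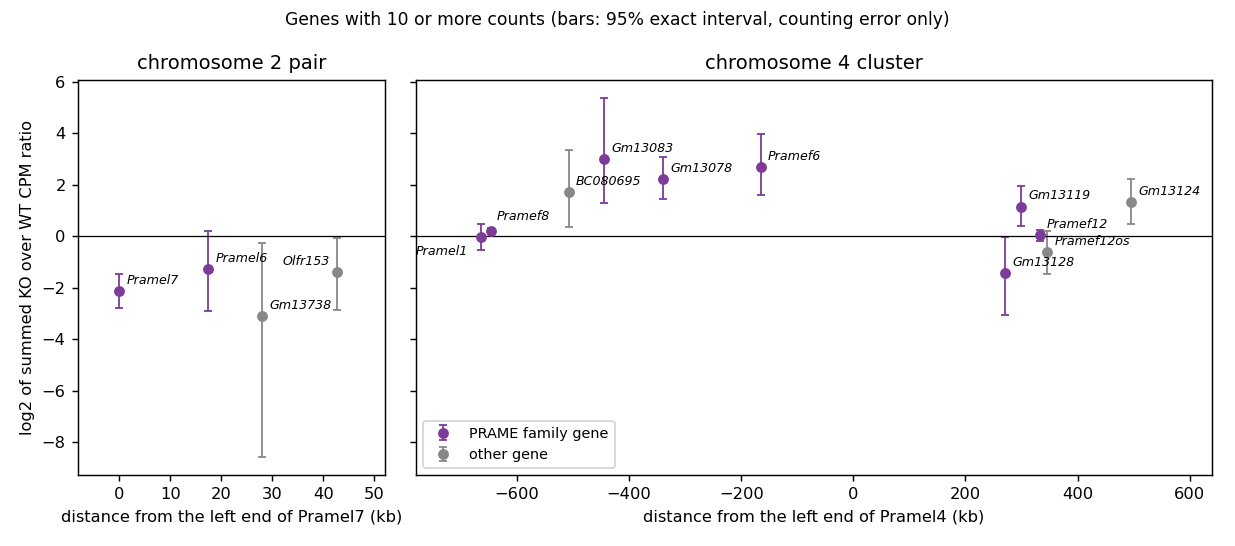
Log2 ratio of summed, scaled counts of KO over WT (points) with 95% exact intervals (bars, counting error only) for genes with at least 10 counts, by distance in kb from the left end of Pramel7 on chromosome 2 and of Pramel4 on chromosome 4; purple marks PRAME family genes and grey other genes. The 4 genes of the left panel lie below 0, with Pramel7 at a ratio of 0.232 and the narrowest interval, while the chromosome 4 cluster holds genes above, near and below 0.

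Genes that work with Pramel7 were compared in lists set up with earlier results of these data known. For Cullin-2 and its partners edgeR called 0 of 13 genes of the ligase, beside 8.07% of all tested genes, and DESeq2 and limma voom called 0 each. With 13 genes, 0 calls cannot be told from that share. At an unadjusted p under 0.05 were 2 of the 13, and 3842 of all 16789 tested genes. The list's median log2 fold change was 0.09, beside 0.01 for all tested genes. Its most abundant members were Fem1b, a substrate receptor, at 319 ± 19.7 CPM in KO and 251 ± 21.7 CPM in WT, and the scaffold Cul2, at 233 ± 22.8 CPM in KO and 228 ± 6.59 CPM in WT (SD, n = 2 each). Fem1b was called without KO replicate 2 (0.41) and without a low-count filter.

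Of 10 DNA methylation genes 1 was called higher and 1 lower, beside 4.05% and 4.02% of all tested genes, 8 were not called, and the median was -0.12. At an unadjusted p under 0.05 were 3 of the 10, and 3842 of all 16789 tested genes. Dnmt3a, a de novo DNA methyltransferase gene, fell to 64.7 CPM in KO, against 101 CPM in WT (log2 fold change -0.64 ± 0.09, edgeR adjusted p = 0.00545). Tet3, which encodes an enzyme that oxidises methylated cytosine, rose to 77.4 CPM in KO, against 51.5 CPM in WT (0.59 ± 0.10, adjusted p = 0.00980). Both calls held when any of the 4 libraries was left out (highest adjusted p = 0.00586 for Dnmt3a and 0.0381 for Tet3), and neither was made with spike-in scaling. The more abundant Tet2 and Tet1, named after their values were seen, lay in the other direction from Tet3 and were not called in the reported fit. Tet2 stood at 247 CPM in KO and 379 CPM in WT (-0.62 ± 0.21, edgeR adjusted p = 0.114). Its value was -0.30 without KO replicate 1 and -1.02 without KO replicate 2. Tet2 was called lower without a low-count filter and with a term for library depth, and not in DESeq2 or limma voom. Tet1 stood at 1162 CPM in KO and 1362 CPM in WT (-0.23 ± 0.15). Uhrf1, the described target of Pramel7 and named here for that reason after its values were seen, stood at 66.8 CPM in KO and 72.3 CPM in WT (-0.12 ± 0.12, adjusted p = 0.623). Levels of UHRF1 protein are outside what nascent RNA measures.

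The LIF and STAT3 list holds genes of the pathway upstream of Pramel7 together with targets of STAT3. It had 4 genes called lower of 14 and 0 called higher, beside 4.02% called lower among all tested genes. Its median was 0.11. Klf4, a transcription factor of the naive state and a STAT3 target, fell by 0.87 on the log2 scale (SE 0.13, adjusted p = 0.00630), and Tfcp2l1, another STAT3 target, fell by 0.73 (SE 0.18, adjusted p = 0.0425) and by 0.46 without KO replicate 1. The receptor gene Lifr fell to 176 CPM in KO, against 267 CPM in WT (-0.60 ± 0.14, adjusted p = 0.0371), and Socs3, a feedback inhibitor induced by STAT3, to 52.2 CPM in KO, against 69.1 CPM in WT (-0.40 ± 0.09, adjusted p = 0.0309). Leaving out WT replicate 2 ended the call of Lifr (adjusted p = 0.105), which stood at -0.40 without KO replicate 1; Socs3 was not called without WT replicate 1 (0.0952) or WT replicate 2 (0.159), nor in DESeq2 (0.0598). The other 10 genes did not pass. At an unadjusted p under 0.05 were 6 of these, with values above 0 for the kinase genes Jak1 (0.24), Jak2 (0.50) and Pim1 (0.44) and the transcription factor gene Gbx2 (0.60), and below 0 for Il6st (-0.35) and Stat3 (-0.22). Gbx2 passed in 3 of 4 fits without a library, the exception being that without WT replicate 2. These 6 genes fall outside the naming rule, and 3842 of all 16789 tested genes were at an unadjusted p under 0.05. The log2 fold change of Pramel7, -2.11, was larger in size than that of every gene of the 3 lists. Nothing is read from this, because Pramel7 was chosen with this contrast known, and the difference was not tested.

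**Figure D4:**
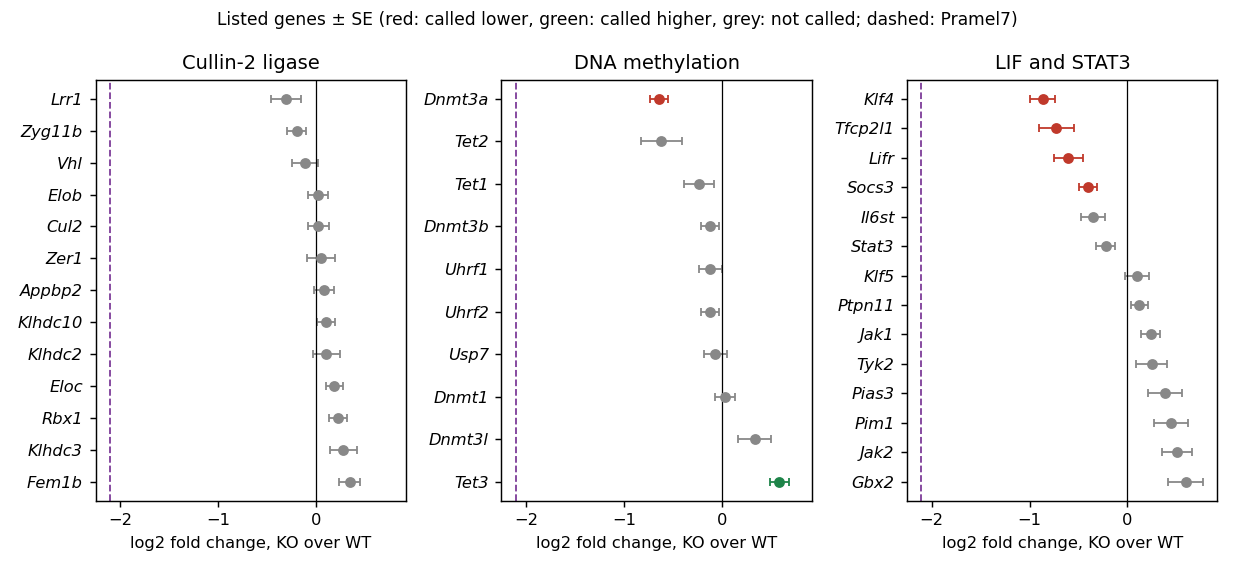
Log2 fold change of KO over WT (points) with SE (bars) from the edgeR fit for the 13 Cullin-2 ligase, 10 DNA methylation and 14 LIF and STAT3 genes; red marks genes called lower, green called higher and grey not called, and the dashed line is Pramel7 at -2.11. The called genes are Dnmt3a and Tet3 in the middle panel and Klf4, Tfcp2l1, Lifr and Socs3 in the right one. All points lie right of the dashed line, from which nothing is read because Pramel7 was chosen with this contrast known.

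The genes whose pattern over the 4 libraries was most like that of Pramel7 were Usp26, Olfr836 and Uty. Likeness was the root mean square difference of mean-centred log2 CPM over the 4 libraries, taken among 11905 protein-coding genes of at least 2 CPM on average, leaving out PRAME family genes and predicted models, and it was 0.07 for Usp26, 0.09 for Olfr836 and 0.11 for Uty. The X-linked ubiquitin peptidase gene Usp26 had 1.18 and 1.68 CPM in KO and 5.56 and 6.21 CPM in WT. Olfr836, an olfactory receptor gene on chromosome 9, had 2.52 and 2.80 CPM in KO and 10.5 and 11.5 CPM in WT, and the Y-linked histone demethylase gene Uty 72.3 and 100 CPM in KO and 283 and 314 CPM in WT. All were lower in KO, a direction that the choice fixes.

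**Figure D5:**
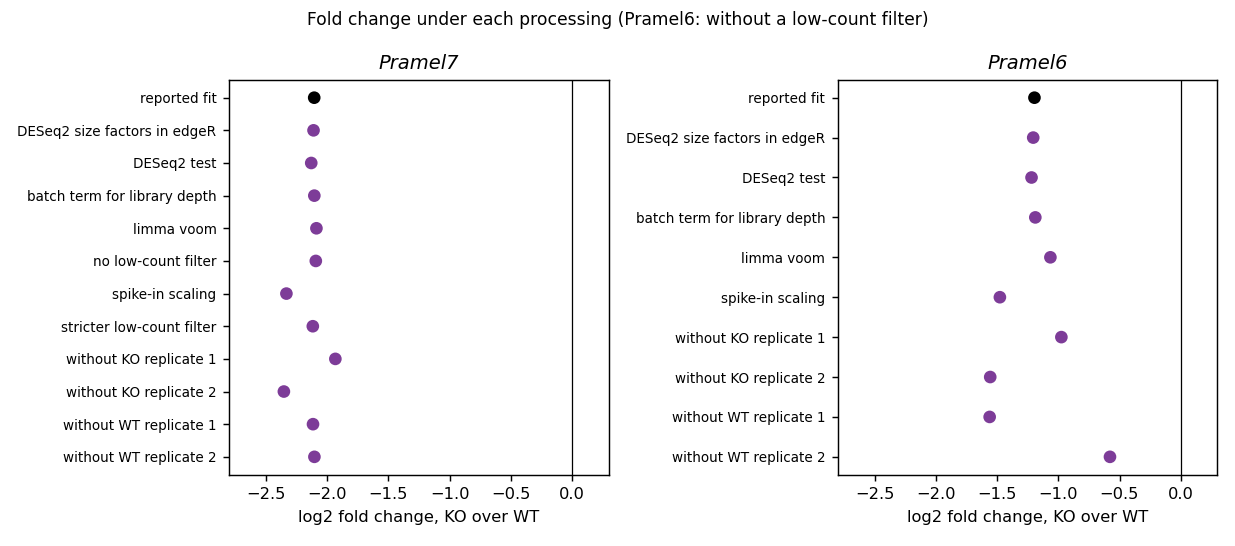
Log2 fold change of KO over WT for Pramel7 and Pramel6 under each processing, with the reported fit in black and 11 alternatives for Pramel7 and 9 for Pramel6 in purple; all Pramel6 values are without a low-count filter. The values of Pramel7 lie between -2.35 and -1.93, and those of Pramel6 between -1.56 and -0.58.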

How the data were processed

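TT-seq libraries of 2 KO and 2 WT samples were analysed from gene tables. Per the submitters' processing notes, reads were handled on mm10 with STAR 2.5.3, HTSeq 0.6.1p1, cutadapt 1.10, bcl2fastq 2.20.0.422 and DESeq2 1.16.1; the strand setting, the annotation release and the counted feature are not stated in the sources used here. The deposited tables hold raw counts per mouse and S. pombe gene. The authors' deposited comparison table repeats them (100% equal) and adds normalized signal values (counts over a size factor), log2 fold changes (KO over WT) with a beta prior, and p-values. Replicates were numbered in accession order. Libraries of a genotype differed by a chi-square per degree of freedom of 6.93 (KO) and 4.15 (WT), so none was a duplicate.

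edgeR 4.0.16 quasi-likelihood tests (R 4.3.3, TMM, filterByExpr with minimum count 10, Benjamini-Hochberg adjusted p under 0.05) were fitted over all genes; the SE is the log2 fold change over the square root of F. On simulated counts of 16789 genes this fit recovered 78.0% of genes changed by 1 and 97.0% of those changed by 2 on the log2 scale, and called 0.0603% of unchanged ones. The simulation gave all genes the same dispersion, so these rates do not carry over to genes whose libraries vary more. Ratios of summed counts have exact binomial intervals. Alternatives were DESeq2 1.42.0, limma 3.58.1 voom, other scalings and filters, a depth term and each library left out.

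The members and lists were chosen with earlier results of these data known. Named were the members, Supt3, family genes passing the filter, up to 4 called genes per list (or the 2 most abundant), the nearest tested neighbours (none on chromosome 2) and the 3 most similar genes.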

Additional observations from a re-analysis of the deposited data

How the results depend on the processing

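The log2 fold change of Pramel7 was -2.33 with spike-in scaling, where it was not called; nothing is read from its calls, since the gene was chosen on this contrast. Without a single library its value lay between -2.35 and -1.93, and that of Pramel6 between -1.56 and -0.58. The fits of Pramel6, all without a low-count filter, were chosen after seeing the data. Pramel4 and Pramel5 had too few counts for a fit. No paired analysis was possible because the labels give no replicate numbers or pairs; the depth term below groups libraries by their total counts. Genes called higher and lower numbered 680 and 675 as reported, 1 and 16 with spike-in scaling, 1260 and 1200 without a low-count filter, and 2214 and 2093 with a term for library depth, which leaves 1 residual degree of freedom; without a single library they ranged from 379 to 1482 and from 439 to 1342. For these, the family and the LIF list the fewest calls came without WT replicate 2 and the most without KO replicate 2. Other family genes called numbered 1 as reported, 0 with spike-in scaling or the stricter filter, 3 in DESeq2, 5 with the depth term, 6 without a filter and 0 to 6 without a library. The Cullin-2 list had 4 calls with the depth term, 1 without a filter and 0 to 1 without a library. The DNA methylation list had 0 calls with spike-in scaling, 5 with the depth term, 4 without a filter and 2 to 4 without a library. The LIF list had 0, 10, 8 and 2 to 8 under the same alternatives. The neighbours outside the family had 1 call with the depth term, 1 without a filter and 0 to 1 without a library, each time Gm13124. Apart from smaller numbers of samples or genes, the cause was not tested. Depth limits Pramel6 and Pramel5, whose counting intervals include equal levels, and Pramel4, which had no count.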
